A study of Sus scrofa with 4 samples.

Results

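The genes examined here encode histone-modifying enzymes of the porcine oocyte. They were taken by symbol alone, as the rows whose gene symbol begins with KDM, KMT, KAT, HDAC, SIRT, SETD or PRMT followed by a digit. The rule matched 67 genes, and 66 of them had values among the 16050 genes listed with values in the deposited table. HDAC4, a class IIa deacetylase (identifier 100624050), was matched but is listed without values. The 66 genes comprised 16 of the KDM family, 10 of the HDAC family, 9 of the SETD family, 8 each of the KMT, KAT and PRMT families and 7 of the SIRT family. RNA came from metaphase II oocytes of female pigs, matured in vitro from slaughterhouse ovaries. The oocytes were cultured for 44 h either in maturation medium without added copper (Control) or with 25 μg/mL copper sulfate (Cu). Control replicates 1 and 2 and Cu replicates 1 and 3 were analysed, each a Smart-seq2 library of 3 oocytes, and the groups are named as the sample labels name them. No member checks those labels, so each direction below rests on them. Outside the members, the authors report Ndufb3 as lower in oocytes exposed to Cu, by RNA-seq and quantitative PCR. In the deposited values NDUFB3 was instead higher in Cu. Its difference from the Control mean on log2(FPKM + 1) was 4.98 in Cu replicate 1 and 2.74 in Cu replicate 3. The reason was not tested, and the other genes of the authors' check were not examined here. Both groups shared the same medium, which contained follicular fluid, EGF, insulin and gonadotropins. No animal or donor is named for a library, so the p-values measure only the spread between these libraries, which may be technical.

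Histone-modifying enzymes add or remove small chemical groups on the tails of histones. Lysine methyltransferases (many of the KMT and SETD proteins) and arginine methyltransferases (PRMT) write methyl marks, and the KDM proteins remove methyl groups from lysine. Lysine acetyltransferases (KAT) add acetyl groups, which are removed by the zinc-dependent HDAC proteins and by the NAD-dependent sirtuins (SIRT). The growing oocyte lays down broad H3K4 methylation and is then largely silent in transcription at metaphase II, so its mRNA is a store made earlier. Some members act mainly on other substrates. SETD3 methylates a histidine of actin, and SIRT3, SIRT4 and SIRT5 reside in mitochondria.

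The libraries behaved as oocyte RNA. All 17 oocyte markers with values, such as ZP2, GDF9, BMP15 and DPPA3, reached 1 FPKM or more in at least 1 library, and their summed level ranged from 12534 to 15726 FPKM. Their median was 624 FPKM in Cu 1 and 119 to 242 FPKM in the other libraries. Of 20 markers of cumulus and granulosa cells, 14 had values, 2 reached 1 FPKM in any library, the summed level lay between 2.9 and 5.09 FPKM, and AMH and NR5A2 were listed at 0 in all 4 libraries. The summed level was 0.3 and 0.38 FPKM in the Control libraries and 2.16 FPKM in Cu 1 and 0.15 FPKM in Cu 3 for 3 blood and immune markers, and 2.94 to 7.45 FPKM in all libraries for 7 theca and stromal markers. FPKM divide the fragments of a gene by its transcript length and by the total of the library, so they can be compared between genes within a library, but they do not keep the read number and the depth is unknown. The Cu 1 library stood apart from the others. It had 9364 genes at 1 FPKM or more, against 7923 to 8162 in the other libraries.

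In order to see which enzymes the oocyte stores, the FPKM of each member was first considered in all 4 libraries. Reverse transcription was primed with oligo dT, so mRNA with a short poly(A) tail or none may be missed. A low FPKM therefore need not mean a small store. Of the 66 members 44 (66.7%) reached 1 FPKM in 2 or more libraries, as did 53.2% of all genes with values. The members were unevenly expressed, with 35 of 66 at 1 FPKM or more in every library, 14 at 10 FPKM or more in every library, and 14 below 1 FPKM in every library. The median over the 66 members was highest in Cu 1, at 3.44 FPKM. It was 1.95 FPKM for Control 1, 2.50 for Control 2 and 1.87 for Cu 3. Over all genes with values the medians were 0.94 and 1.07 FPKM for Control 1 and 2 and lay at 1.9 and 1.05 FPKM for Cu 1 and 3. All members together held between 0.0719% of the summed FPKM, in Cu 3, and 0.117%, in Cu 1. The order of the 44 members used in the test was similar in all libraries, with Spearman's rho between 0.854 (Cu 1 with Cu 3) and 0.973 (the Control libraries). These correlations are over 44 genes of the same 4 libraries and are given as a description.

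**Figure D1:**
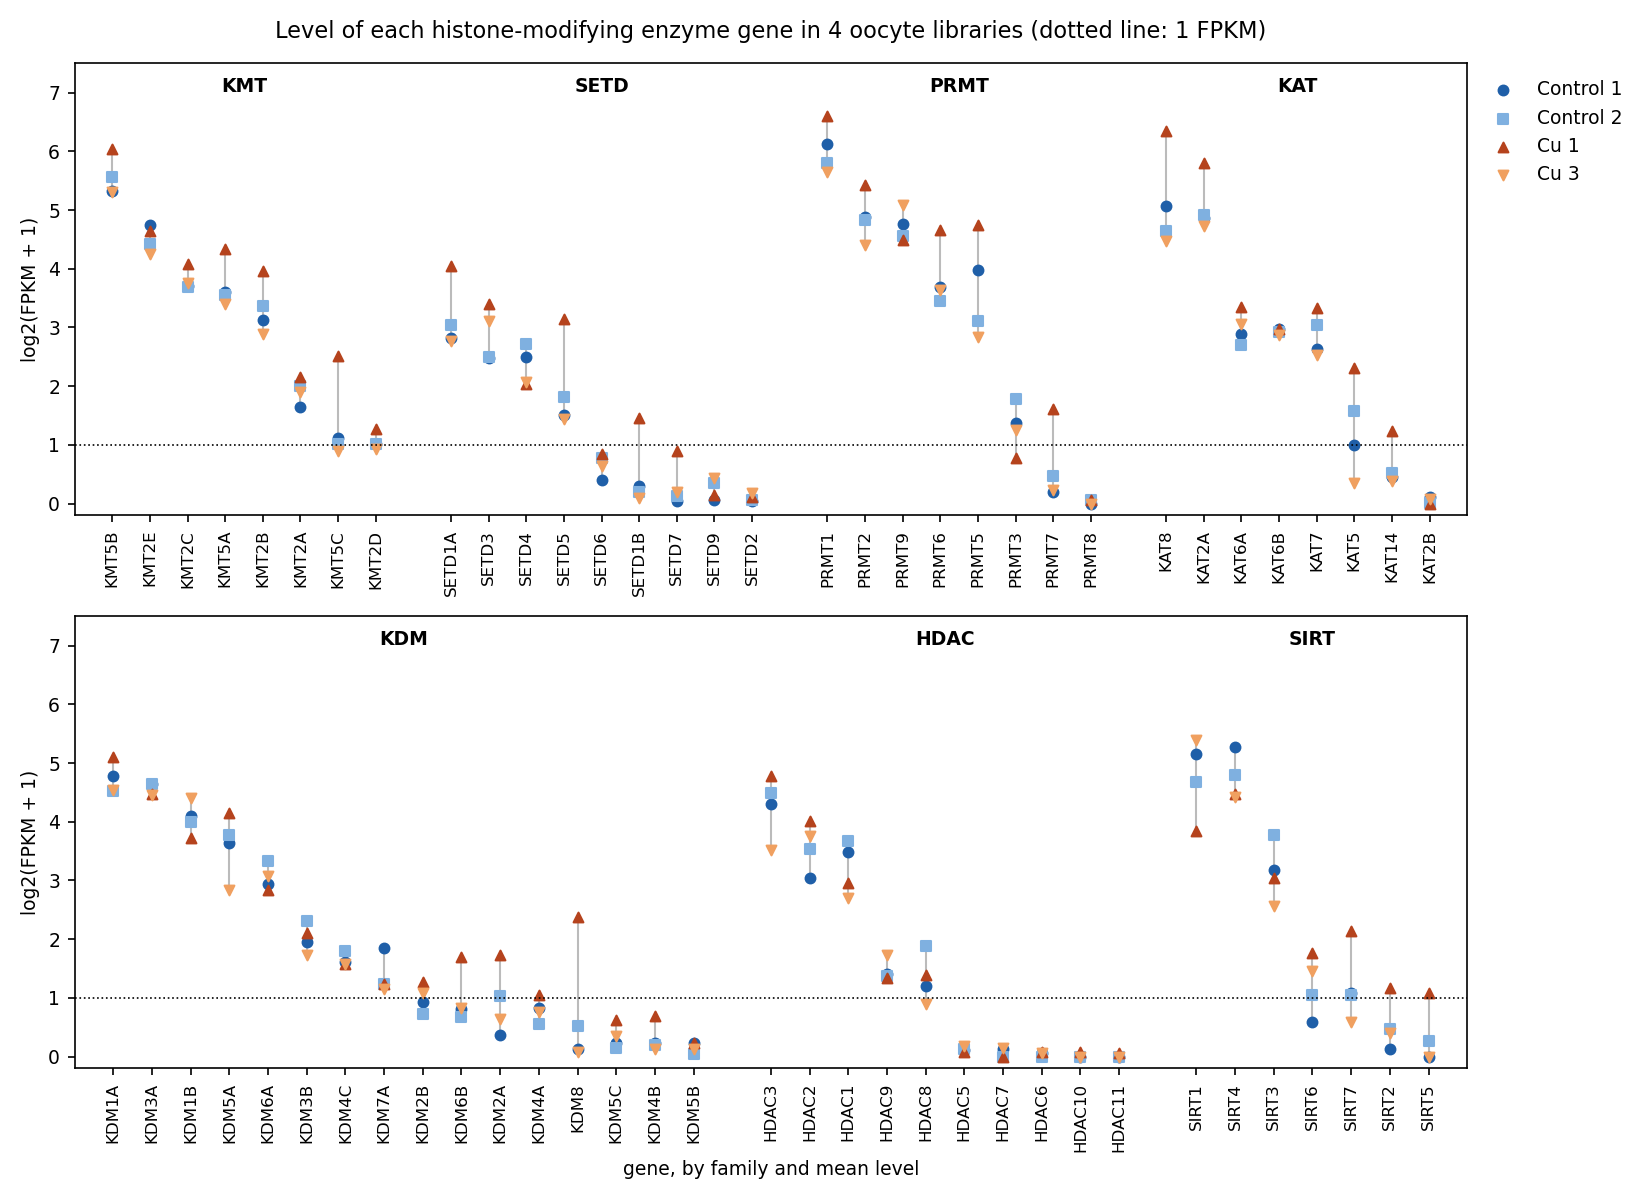
Level of the 66 histone-modifying enzyme genes with values, as log2(FPKM + 1) on the vertical axis, with genes grouped by family and ordered by mean level. Each symbol is 1 library, the grey line spans the 4 libraries, and the dotted line marks 1 FPKM. PRMT1, KMT5B, KAT8 and KAT2A lie at the top of their families, and the class IIa, IIb and IV HDAC genes other than HDAC9 lie near 0.

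Among the writers of lysine methylation, KMT5B was the highest. It encodes an H4K20 methyltransferase and had 39.2 and 46.1 in Control 1 and 2 against 64.7 and 38.5 FPKM in Cu 1 and 3. Cu 1 was above both Control libraries and Cu 3 below both. KMT2E, a member of the H3K4 family for which no methyltransferase activity of its own is established, had 25.8 and 20.4 in Control against 24.1 and 18.1 FPKM in Cu. KMT5A, which places a single methyl group on H4K20, had 11.11 and 10.75 in Control against 19.1 and 9.58 FPKM in Cu. Of the H3K4 methyltransferases, KMT2B, which is needed for H3K4 methylation in the mouse oocyte, had 7.70 and 9.34 in Control against 14.6 and 6.42 FPKM in Cu. KMT2D was much lower, at 1.03 and 1.02 in Control against 1.42 and 0.91 FPKM in Cu.

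The SETD genes were divided between a few expressed members and many close to 0. SETD1A, the catalytic subunit of a SET1 complex for H3K4, had 6.10 and 7.21 in Control against 15.5 and 5.80 FPKM in Cu. Its paralog SETD1B had 0.23 and 0.15 in Control against 1.73 and 0.07 FPKM in Cu. SETD2, the enzyme of H3K36 trimethylation, did not exceed 0.13 FPKM in any library. In sum, the 6 H3K4 methyltransferases KMT2A to KMT2D, SETD1A and SETD1B reached 29.3 and 32.5 in Control against 52.7 and 28.4 FPKM in Cu. The 5 H3K4 demethylases KDM1A, KDM1B and KDM5A to KDM5C reached 54.4 and 49.8 in Control against 63.1 and 49.0 FPKM in Cu. The demethylase sum was thus the larger in every library. Coverage of long transcripts can differ in such libraries and was not examined, so the sums need not follow the numbers of mRNA molecules.

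PRMT1 was the most abundant of all members. It makes most of the asymmetric dimethylarginine in cells, and had 68.9 and 54.96 in Control against 96.2 and 49.3 FPKM in Cu. Those values placed it between the 91.2 and the 94.3 percentile of all genes with values, depending on the library. PRMT2, another type I enzyme, had 28.3 and 27.4 in Control against 42.1 and 20.1 FPKM in Cu. PRMT5, the main enzyme of symmetric arginine dimethylation, had 14.7 and 7.58 in Control against 25.9 and 6.13 FPKM in Cu. Its Control libraries differed from each other by a larger ratio than those of PRMT1 or PRMT2.

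Among the demethylases, both flavin-dependent enzymes of H3K4 were well expressed. KDM1A (LSD1) had 26.4 and 22.02 in Control against 33.5 and 22.4 FPKM in Cu. KDM1B (LSD2), which in the mouse is required to establish maternal DNA methylation imprints, had 16.1 and 14.9 in Control against 12.2 and 20.1 FPKM in Cu. In KDM1B the order of the Cu libraries was the reverse of that in KDM1A. The ratio of KDM1A to KDM1B, chosen after the values were seen, was 1.64 and 1.48 in Control and 2.73 and 1.11 in Cu, so the Cu libraries lay on either side of the Control libraries. KDM3A, an H3K9 demethylase, was nearly constant, at 23.9 and 24.0 FPKM in Control and 21.1 FPKM in both Cu libraries. Of the X-linked H3K27 demethylase KDM6A there were 6.70 and 9.02 in Control against 6.15 and 7.46 FPKM in Cu. KDM6B, the other H3K27 demethylase, had 0.76 and 0.60 in Control against 2.24 and 0.77 FPKM in Cu. KDM4A, an H3K9 demethylase of the mouse oocyte and early embryo, did not exceed 1.06 FPKM. KDM5B, which removes H3K4 methylation, did not exceed 0.18 FPKM.

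For acetylation, 2 genes carried most of the KAT signal. KAT8 (MOF), the H4K16 acetyltransferase, had 32.7 and 24.1 in Control against 80.01 and 21.2 FPKM in Cu. KAT2A (GCN5), a catalytic subunit of the SAGA complex, had 28.1 and 29.1 in Control against 55 and 25.4 FPKM in Cu. In both, Cu 1 was well above and Cu 3 below both Control libraries. KAT5 (TIP60), which acts in the response to DNA breaks, was lower and more scattered, at 1 and 1.98 in Control against 3.93 and 0.28 FPKM in Cu.

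Among the HDAC genes with values, the class I genes HDAC1, HDAC2 and HDAC3 were the most abundant. HDAC3, the deacetylase of the NCOR complexes, had 18.7 and 21.6 in Control against 26.6 and 10.4 FPKM in Cu. The class I genes HDAC1, HDAC2, HDAC3 and HDAC8 summed to 37.5 and 46.6 in Control against 50.0 and 29.3 FPKM in Cu. The 6 genes of classes IIa, IIb and IV with values summed to no more than 2.61 FPKM in any library, most of it HDAC9, which is named here after its values were seen. HDAC6, the tubulin deacetylase, was listed at 0 in Control 2 and did not exceed 0.05 FPKM elsewhere. Among the sirtuins, SIRT1, the nuclear deacetylase, had 34.8 and 24.7 in Control against 13.3 and 41.2 FPKM in Cu. Cu 1 was the lowest and Cu 3 the highest library for SIRT1, the opposite of the order in PRMT1 or KAT8. SIRT4 stood at a similar level, and SIRT2 and SIRT5 did not exceed 0.39 FPKM outside Cu 1.

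To ask whether copper exposure altered these genes, Cu and Control were compared by limma's moderated test on log2(FPKM + 1). The test covered 8541 genes that passed the filter of 1 FPKM in 2 or more libraries, the 44 members among them. After Benjamini-Hochberg adjustment no member and no other gene passed 0.05 in limma's test (0% of the 8541 genes). At an unadjusted p of 0.05, 0 of 44 members were called in either direction, where 5.58% of all tested genes were called as higher and 1.43% as lower in Cu. The smallest unadjusted p of a member was 0.0687 (SIRT6), and an exact two-sided permutation test of 2 libraries against 2 cannot go below 0.333. The median log2 fold change was 0.14 over the 44 members and 0.16 over all tested genes, with 28 of 44 members (63.6%) and 64.3% of all genes above 0. The members' fold changes lay between -0.75 (HDAC1) and 0.79 (SIRT6), and their standard errors between 0.31 and 0.69. The 95% interval included 0 for all 44 members and lay within 1 on the log2 scale for 6. For most members it thus reached beyond 1 in at least 1 direction, and for some, such as PRMT5 (-1.44 to 1.95), in both. FPKM are relative to each library's total, so with 3 oocytes in each library a difference in the RNA content per oocyte cannot be seen. The call depended on the Cu 3 library. Without it, 8 of 44 members and 20.5% of all genes passed 0.05 after adjustment in limma's test, with the lone Cu 1 library assumed to vary like the Control libraries. Without Cu 1, 0 members and 2.18% of all genes did.

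**Figure D2:**
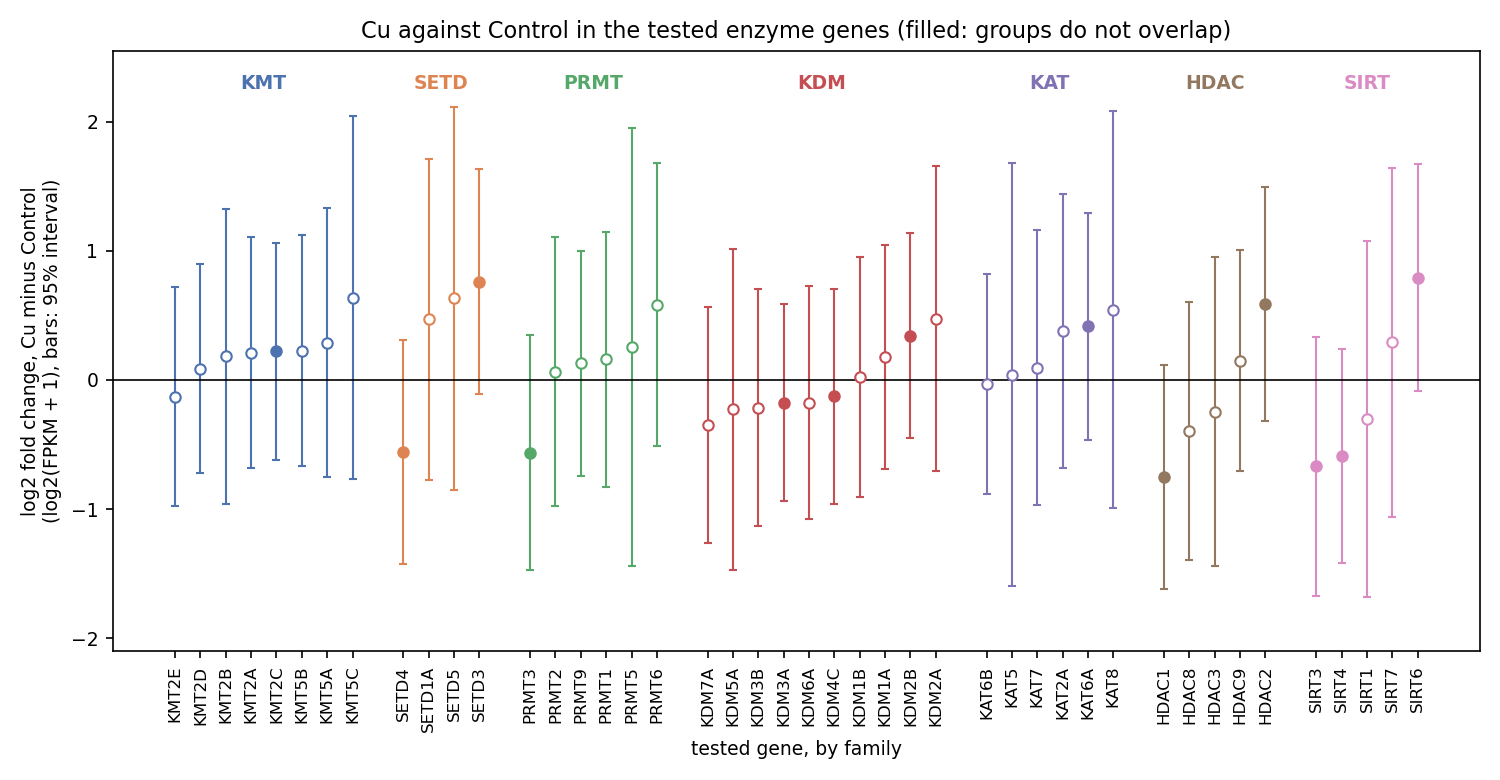
Log2 fold change (Cu minus Control, on log2(FPKM + 1)) of the 44 tested members, grouped by family, with the 95% interval of limma's fit as bars. Filled points are the 13 genes whose groups did not overlap. Every interval crosses 0, and the estimates run from -0.75 for HDAC1 to 0.79 for SIRT6.

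In 6 members both Cu libraries exceeded both Control libraries (13.6%), where 25.4% of all tested genes did, and in 7 both lay below (15.9%), against 13.4% of all tested genes. The 6 were KMT2C, KDM2B, KAT6A, HDAC2, SETD3 and SIRT6, and the 7 were HDAC1, SIRT3, SIRT4, PRMT3, SETD4, KDM3A and KDM4C. The numbers moved with the scaling of the libraries. After median-of-ratios scaling 12 members were below, against 19.8% of all genes, and after quantile normalization 13 members were below and 3 above, against 22.8% and 16.7% of all genes. Without the filter on low values 10 of 66 members were above (15.2%) and 7 below (10.6%), against 22.5% and 10.4% of all genes.

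The class I paralogs HDAC1 and HDAC2, which share corepressor complexes, lay on opposite sides of Control. HDAC1 (identifier 100622482, chr6:88749611-88785220 in Sscrofa11.1) had 10.2 and 11.7 in Control 1 and 2 against 6.72 and 5.54 FPKM in Cu 1 and 3. On the log2 scale Cu minus Control was -0.75 ± 0.35 (SE, adjusted p = 0.708 in limma's test), and both Cu libraries were below both Control libraries. HDAC2 (identifier 100156170, chr1:79867713-79901597) had 7.28 and 10.6 in Control against 15.1 and 12.5 FPKM in Cu. The difference on the log2 scale was 0.59 ± 0.37 (SE, adjusted p = 0.758), with both Cu libraries above. It was 0.34 without Control 1 and 0.35 after quantile normalization. The ratio of HDAC2 to HDAC1, which no scaling of a library by a single factor alters, was 0.711 and 0.907 in Control and 2.251 and 2.258 in Cu. The pair was set side by side after its values were seen, and the ratio is given without a test. The authors' mean FPKM were 10.3 and 6.38 for HDAC1 and 11.9 and 12.1 for HDAC2 in Control and Cu, so the authors' means of HDAC2 were close to each other. Multiplied by 3, those means came to whole hundredths of an FPKM for all 16050 genes, within a tolerance of 0.01 hundredths, as a mean over 3 libraries would. They therefore appear to hold a library of each group that was not analysed here. The ratio of HDAC2 to HDAC1 in those means was 1.15 in Control and 1.89 in Cu, closer together than in the analysed libraries. For HDAC2 the Control mean lay above both analysed Control libraries and the Cu mean below both analysed Cu libraries. The separation of the groups therefore need not hold in the libraries not analysed.

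SETD3 and SETD4 also lay on opposite sides. SETD3 (identifier 100152552, chr7:120412545-120486687), the actin histidine methyltransferase, had 4.59 and 4.67 in Control against 9.49 and 7.68 FPKM in Cu. On the log2 scale Cu minus Control was 0.76 ± 0.36 (SE, adjusted p = 0.708 in limma's test), and 0.48 after quantile normalization. SETD4 (identifier 100622154, chr13:199564048-199589924), a less studied SET domain protein, had 4.67 and 5.56 in Control against 3.08 and 3.22 FPKM in Cu, a log2 difference of -0.56 ± 0.35 (SE, adjusted p = 0.762). The analysed libraries of each group lay close together in both genes, and the groups did not overlap. The ratio of SETD3 to SETD4, also chosen after the values were seen, was 0.983 and 0.84 in Control and 3.08 and 2.39 in Cu. The authors' mean FPKM were 4.73 in Control and 7.44 in Cu for SETD3, and 4.26 and 2.78 for SETD4. For SETD4 each of these means lay below both analysed libraries of its group. The separation of SETD4 therefore need not hold in the libraries not analysed. For SETD3 the Control mean lay above both analysed Control libraries and the Cu mean below both analysed Cu libraries. The groups were thus closer together for SETD3 in the authors' means than in the analysed libraries.

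Among the sirtuins, the mitochondrial SIRT3 and SIRT4 and the nuclear SIRT6 lay on opposite sides of Control. SIRT4 (identifier 100125349, chr14:40290288-40303887), which represses glutamate dehydrogenase, had 37.8 and 26.7 in Control against 21.3 and 20.4 FPKM in Cu. The difference on the log2 scale was -0.59 ± 0.34 (SE, adjusted p = 0.746 in limma's test), and -0.34 without Control 1. SIRT3 (identifier 100125971, chr2:38465-55074), the main deacetylase of mitochondrial proteins, had 8.04 and 12.8 in Control against 7.26 and 4.95 FPKM in Cu, a log2 difference of -0.67 ± 0.41 (SE, adjusted p = 0.756). Without Control 2 it was -0.37 and without Cu 3 -0.43. For SIRT3 the gap between Control 1 and Cu 1 was smaller than the gap between the Control libraries. SIRT6 (identifier 100126274, chr2:74568539-74577774), a chromatin deacetylase linked to DNA repair, had 0.51 and 1.07 in Control against 2.40 and 1.76 FPKM in Cu. On the log2 scale Cu minus Control was 0.79 ± 0.36 (SE, adjusted p = 0.708), at a level near the filter of 1 FPKM, and 1.35 with a pseudocount of 0.1. SIRT5, the mitochondrial desuccinylase, was listed at 0 in Control 1 and Cu 3, with 0.20 FPKM in Control 2 and 1.13 FPKM in Cu 1. The sum of SIRT3, SIRT4 and SIRT5 was 45.9 and 39.7 FPKM for Control 1 and 2 and 29.7 and 25.3 FPKM for Cu 1 and 3, with both Cu libraries below. The authors' mean FPKM in Control and Cu were 26.4 and 22.4 for SIRT4, 9.61 and 6.02 for SIRT3, and 0.69 and 1.70 for SIRT6. For SIRT4 the Control mean lay below both analysed Control libraries and the Cu mean above both analysed Cu libraries. For SIRT6 the Cu mean lay below both analysed Cu libraries. The separation of SIRT4 and of SIRT6, and of the sum that holds SIRT4, therefore need not hold in the libraries not analysed.

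The other members among the 5 lowest unadjusted p in each direction had p of 0.18 or more. PRMT3, the arginine methyltransferase of a ribosomal protein, had 1.6 and 2.45 in Control against 0.72 and 1.39 FPKM in Cu. The difference on the log2 scale was -0.56 ± 0.37 (SE, adjusted p = 0.775 in limma's test). It was -0.36 without Control 2, -0.33 without Cu 1 and -0.91 with a pseudocount of 0.1. PRMT6, which methylates H3R2, had 11.8 and 9.92 in Control against 24.3 and 11.4 FPKM in Cu, a log2 difference of 0.58 ± 0.45 (SE, adjusted p = 0.79). Its groups overlapped, and only Cu 1 stood above both Control libraries, with a difference of 0.069 without Cu 1 and 1.09 without Cu 3. KAT6A (MOZ), an H3 acetyltransferase, had 6.38 and 5.48 in Control against 9.18 and 7.36 FPKM in Cu, a log2 difference of 0.42 ± 0.36 (SE, adjusted p = 0.808). It was 0.27 without Cu 1, 0.14 after quantile normalization and 0.26 after median-of-ratios scaling. Of the 13 members whose groups did not overlap, 12 had authors' means in the same direction, as did 92.6% of all such genes. Those means share the analysed libraries, so the direction is not independent. The exception was KDM4C, an H3K9 and H3K36 demethylase, with authors' means of 2.15 in Control and 2.52 in Cu. The authors' means carry no SD here.

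**Figure D3:**
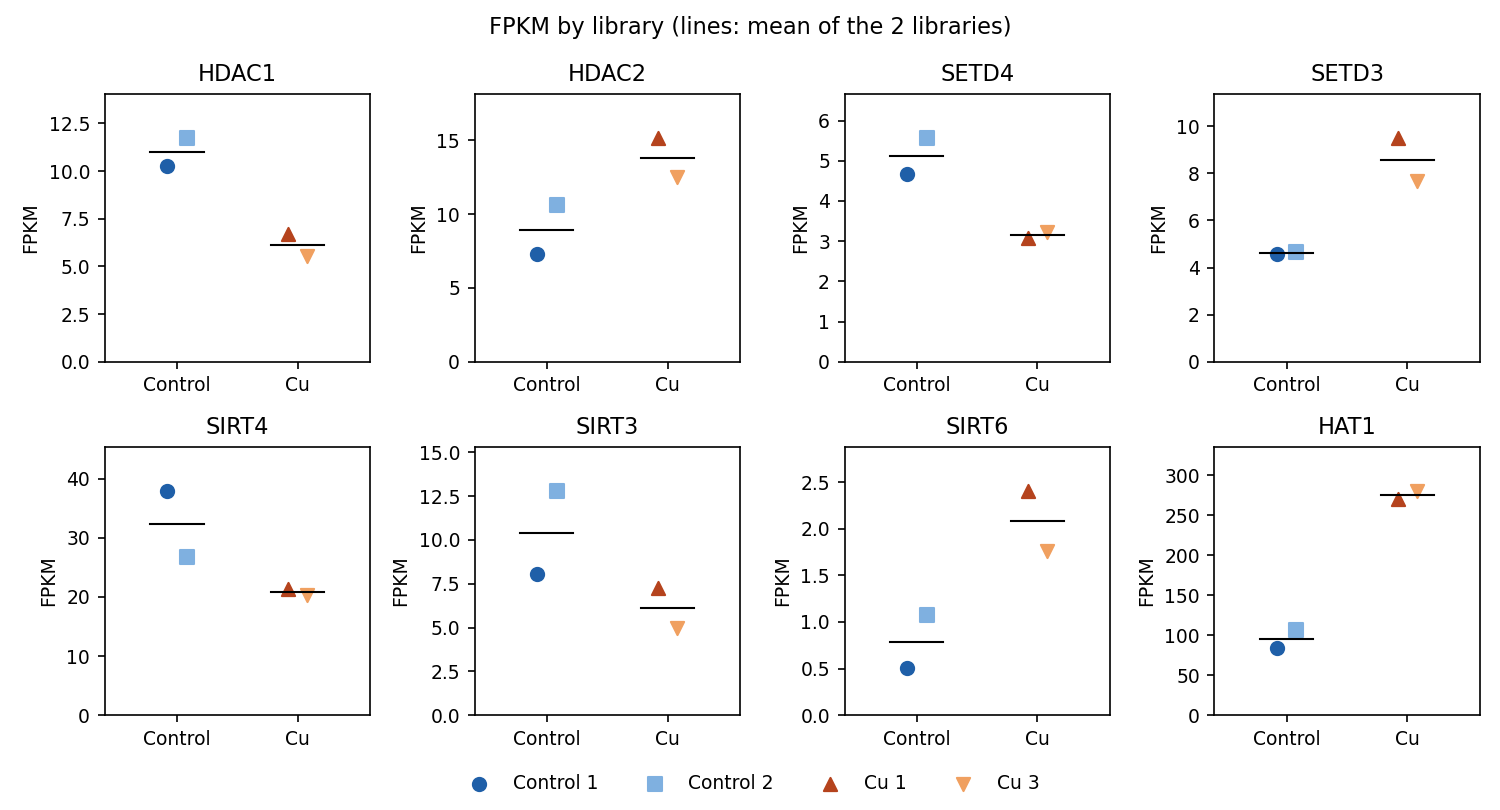
FPKM of HDAC1, HDAC2, SETD4, SETD3, SIRT4, SIRT3, SIRT6 and HAT1 in the 4 libraries, with each vertical axis starting at 0. Symbols are libraries and lines are the means of the 2 libraries of a group. HDAC1, SETD4, SIRT4 and SIRT3 are lower and HDAC2, SETD3, SIRT6 and HAT1 higher in both Cu libraries than in both Control libraries.

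Cu 1 was set apart from all other libraries over the members. The median absolute log2 difference of the 44 members was 0.55 and 0.59 between Cu 1 and the Control libraries and 0.53 between Cu 1 and Cu 3, and 0.23 to 0.37 among the other libraries. The Cu libraries also lay on different sides of Control. Relative to the Control mean, the median log2 difference of the 44 members was 0.43 in Cu 1 and -0.18 in Cu 3. Over all tested genes it was 0.31 in Cu 1 and 0.0023 in Cu 3. Cu 1 was above both Control libraries for 27 of 44 members (61.4%), beside 58.1% of all tested genes, and was the highest of the 4 libraries for 27 members, beside 51% of all tested genes. Cu 3 was below both Control libraries for 29 of 44 members (65.9%), where 37.1% of all tested genes were, and was the lowest of the 4 libraries for 27 members (61.4%), where 29.9% of all tested genes were. Both held at once, Cu 1 above and Cu 3 below both Control libraries, for 17 members (38.6%) and for 18.5% of all tested genes. With other scalings, tried after the data were seen, 29 members were again below in Cu 3, against 37% of all genes after median-of-ratios scaling and 39.6% after quantile normalization. Cu 3 was then the lowest library for 21 members (24.3% of all genes) and 19 members (24.6% of all genes). Cu 1 was above both Control libraries for 23 members against 41.4% of all genes, and for 19 members against 37.1%, and was the highest library for 19 members against 34.3% and for 16 members against 30.9%. Cu 1 above with Cu 3 below held for 16 members against 12.4% of all genes, and for 14 members against 11.9%. These are counts over genes of the same libraries and were not tested.

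**Figure D4:**
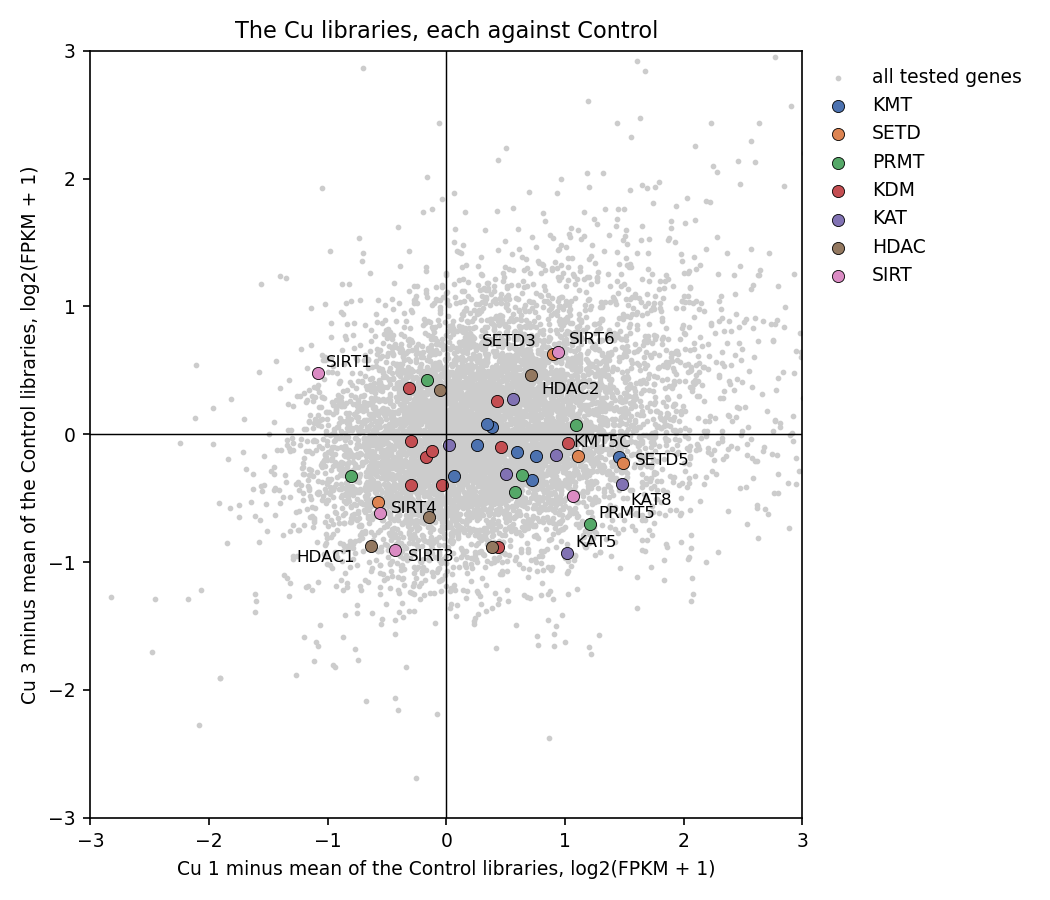
Difference of Cu 1 (horizontal axis) and of Cu 3 (vertical axis) from the mean of the Control libraries, on log2(FPKM + 1). Coloured points are the 44 tested members by family, grey points all tested genes, and 65 genes lie outside the range shown, none of them members. Members are spread to the right of and below 0, with KAT8, SETD5, KMT5C and PRMT5 far right and SIRT1 farthest to the left with Cu 3 above 0.

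Of the 44 tested members, those with the largest difference of Cu 1 from Control were SETD5, KAT8 and KMT5C, of which SETD5 and KMT5C are named after their values were seen. Without Cu 3, the log2 fold change of KAT8 was 1.48. It was 1.48 for SETD5, a SET domain protein related to KMT2E, and 1.45 for KMT5C, an H4K20 methyltransferase. These values are the same differences of Cu 1 from Control by which the genes were picked, and they rest on Cu 1 alone. SETD5 had 1.85 and 2.50 in Control against 7.84 and 1.71 FPKM in Cu. KMT5C had 1.18 and 1.01 in Control against 4.73 and 0.85 FPKM in Cu. Without Cu 3 the log2 fold change was also 1.21 for PRMT5, 1.09 for PRMT6, 1.11 for SETD1A and 0.92 for KAT2A, and -1.08 for SIRT1. With all 4 libraries the log2 fold change was 0.54 for KAT8 (standard error 0.63), 0.26 for PRMT5 (standard error 0.69) and -0.30 for SIRT1 (standard error 0.56), and without Cu 1 these values were -0.39, -0.70 and 0.48.

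A further 8 members reached 1 FPKM in Cu 1 and in no other library, and none did so in any other library alone. That was 12.1% of the 66 members, where 6.22% of all genes with values did so. They were KAT14, KDM4A, KDM6B, KDM8, PRMT7, SETD1B, SIRT2 and SIRT5, of which KAT14, KDM8 and PRMT7 are named after their values were seen. KDM8, a Jumonji-domain protein, had 0.09 and 0.43 in Control against 4.17 and 0.06 FPKM in Cu. PRMT7, the monomethylating arginine methyltransferase, had 0.14 and 0.38 in Control against 2.07 and 0.17 FPKM in Cu. None of these 8 passed the filter for the test. The larger number of genes detected in Cu 1 moved with these values, and its part in them was not tested.

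By family, Cu 1 stood unequally far from Control. Relative to the Control mean, the median log2 difference in Cu 1 was 1.003 for 4 tested SETD genes, 0.74 for 6 KAT genes, 0.61 for 6 PRMT genes and 0.49 for 8 KMT genes. It was -0.076 for 10 KDM genes, -0.053 for 5 HDAC genes and -0.43 for 5 SIRT genes. Thus Cu 1 was above both Control libraries for 19 of 24 tested genes in the families that add methyl or acetyl groups and for 8 of 20 in those that remove them. Over all tested genes the share was 58.1%. The families were taken by symbol, so those that add groups include KMT2E and SETD3. After quantile normalization the counts were 14 of 24 and 5 of 20, beside 37.1% of all tested genes. The split was drawn after the values were seen. In Cu 3 the median was below 0 in all 7 families, from -0.12 for KDM to -0.65 for HDAC. Cu 3 was below both Control libraries for 6 of 8 KMT, 5 of 6 KAT, 4 of 6 PRMT, 3 of 4 SETD, 5 of 10 KDM, 3 of 5 HDAC and 3 of 5 SIRT genes. Over all tested genes that share was 37.1%. With both Cu libraries in the fit, the median log2 fold change was 0.55 for SETD, 0.24 for KAT, 0.22 for KMT and 0.14 for PRMT, and -0.15 for KDM, -0.25 for HDAC and -0.30 for SIRT. The signs of KAT and KMT turned to -0.011 and -0.023 after quantile normalization, and that of PRMT to -0.028 after median-of-ratios scaling. Without the filter on low values the medians of KDM and SIRT turned to 0.11 and 0.29. After quantile and median-of-ratios scaling the median of all tested genes was -0.049 and 0.015. In Cu 3 alone the medians of SETD, KAT, KMT and PRMT were -0.19, -0.24, -0.16 and -0.32. The families hold 4 to 10 tested genes each, and no test was made between them.

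**Figure D5:**
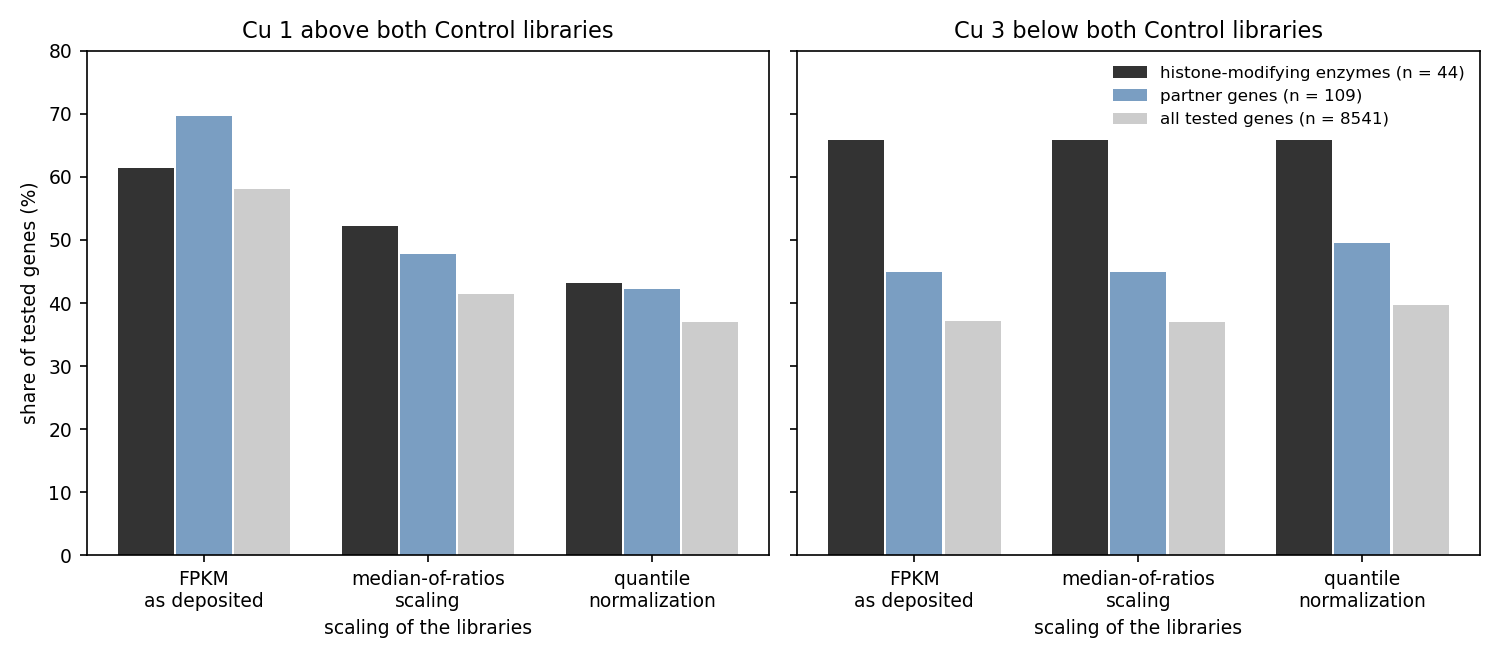
Share of tested genes (vertical axis, %) for which Cu 1 was above both Control libraries (left) and Cu 3 below both (right), with the FPKM as deposited and after 2 other scalings. Bars are the 44 histone-modifying enzymes, 109 other chromatin genes called partner genes, and all 8541 tested genes. For Cu 3 the bar of the enzymes is at 65.9% in every scaling, above 45.0% to 49.5% for the partner genes.

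The enzymes work in complexes with proteins that the symbol rule did not take, so 7 lists of other enzymes, complex partners and readers of the marks were examined in the same fit. Of their genes 109 were tested, with a median log2 fold change of 0.16. For these, Cu 1 was above both Control libraries in 69.7% and Cu 3 below both in 45.0%. The list medians were 0.22 for 15 other histone methyltransferases, 0.33 for 5 other demethylases, 0.24 for 8 other acetyltransferases and 0.12 for 10 partners in the MLL and SET1 complexes. They were 0.090 for 31 partners of acetyltransferases, 0.089 for 24 partners of deacetylases and 0.28 for 16 readers. At an unadjusted p of 0.05 the numbers called as higher were 1 each among the demethylases, the acetyltransferases and both partner lists of acetylation and deacetylation. As lower there were 3, all among the 31 partners of acetyltransferases. Over all tested genes 5.58% were called as higher and 1.43% as lower at that p by limma's test. These are counts of single genes, and no list was tested as a set.

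HAT1, the acetyltransferase that modifies newly made histone H4, had the smallest p of these genes. It had 84.2 and 106.6 in Control against 270.6 and 279.5 FPKM in Cu, so that both Cu libraries were far above both Control libraries and close to each other. On the log2 scale Cu minus Control was 1.53 ± 0.28 (SE, adjusted p = 0.631 in limma's test) and stayed between 1.36 and 1.70 with each library left out in turn. ING3, a reader subunit of the TIP60 complex that contains KAT5, had 146.8 and 145.2 in Control against 82.5 and 81.5 FPKM in Cu, a log2 difference of -0.82 ± 0.27 (SE, adjusted p = 0.656). SAP18, a subunit of the SIN3 corepressor that holds HDAC1 and HDAC2, had 35.8 and 25.1 in Control against 78.0 and 52.5 FPKM in Cu, a log2 difference of 1.07 ± 0.36 (SE, adjusted p = 0.656). ARID4A, another SIN3 subunit, had 177.1 and 148.4 in Control against 113.3 and 89.1 FPKM in Cu, a log2 difference of -0.68 ± 0.29 (SE, adjusted p = 0.708). Subunits of the same complex thus lay on opposite sides. MSL1, the scaffold of a KAT8 complex, had 3.09 and 5.74 in Control against 14.5 and 9.09 FPKM in Cu, a log2 difference of 1.25 ± 0.44 (SE, adjusted p = 0.656). In HAT1, SAP18 and MSL1 both Cu libraries were above Control, unlike KAT8 itself. The demethylase-related oxygenase RIOX1 had 1.18 and 1.24 in Control against 4.25 and 3.01 FPKM in Cu, with a log2 fold change of 1.05 at the same adjusted p as MSL1.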

How the data were processed

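The deposited table holds FPKM per library for Control replicates 1 and 2 and Cu replicates 1 and 3, and the authors' mean FPKM of each group. The authors' methods name SOAPnuke, HISAT2, Bowtie2 and RSEM, whereas the submitters' processing notes name TopHat2 2.0.13, Cufflinks 2.2.1, Cuffnorm and Cuffdiff with Sscrofa11.1. Which of them gave the FPKM is not settled, and how reads of paralogs were divided is therefore unknown. The depth is unknown, so no counting interval is given. Group and replicate came from the sample titles, copper dose, culture time and oocytes per library from the methods.

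Genes reaching 1 FPKM in 2 or more libraries were put on a log2(FPKM + 1) scale. Limma 3.58.1 (R 4.3.3) then fitted a linear model with variances moderated along a trend, and p-values of all 8541 genes were adjusted together by Benjamini-Hochberg, at a threshold of 0.05. The fit was tested on simulated data. The count-based test of the methods was not used, since FPKM are not counts. Coordinates were taken from RefSeq's genes on Sscrofa11.1, in which all 66 identifiers were found. A planned description by protein length was not made, as no protein lengths were used here.

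Members and lists were chosen with earlier results of these data known. Named genes are the 2 highest members of each family, the 5 members with the smallest p in each direction, 27 members fixed for their known roles and the 2 genes with the smallest p of each of the 7 lists, of which some are shown. Others are marked as named after their values were seen or are given as exceptions or as members of a count. Alternatives were a pseudocount of 0.1, no filter, a filter on all 4 libraries, quantile normalization, median-of-ratios scaling, no variance trend, array weights and leaving out each library.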

Additional observations from a re-analysis of the deposited data

How the results depend on the processing

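With 2 libraries a group and unknown depth, the median standard error of the members was 0.37 on the log2 scale. Leaving a library out gave no value for the numbers of members whose groups did not overlap. No paired analysis was possible because the groups share only 1 replicate number. At an adjusted p of 0.05 no gene was called in any setting that kept all 4 libraries. With each library left out, 0 to 1755 genes and 0 to 8 members were called. At an unadjusted p of 0.05 the genes higher in Cu then ranged from 112 to 2368 and those lower from 15 to 590, and members from 0 to 14 and from 0 to 5. The genes lower in Cu, 122 with the settings used, were 238 without the filter, 288 after quantile normalization and 229 after median-of-ratios scaling, of which members were 0, 2 and 1. Members above Control in both Cu libraries, 6 as reported, were 10 without the filter and 3 after quantile normalization, and those below, 7 as reported, were 13 and 12 after quantile and median-of-ratios scaling. Members highest in Cu 1, 27 as reported, were 16 after quantile normalization.

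Without the filter the family medians were 0.11 for KDM and 0.29 for SIRT, and after quantile normalization that of KAT was -0.011. With each library left out, the median ranged from -0.18 to 0.43 over members, -0.65 to -0.053 for HDAC, -0.24 to 0.74 for KAT, -0.32 to 0.61 for PRMT, -0.19 to 1.003 for SETD, -0.16 to 0.33 for acetyltransferase partners and -0.19 to 0.57 for readers. The cause was not tested. Over tested members alone, the median FPKM in Control 1, Control 2, Cu 1 and Cu 3 was 4.63, 5.12, 8.67 and 4.51 for SETD, 4.78, 6.50, 4.72 and 4.22 for KDM, 7.28, 10.6, 6.72 and 5.54 for HDAC, and 8.04, 12.8, 7.26 and 4.95 for SIRT. It was 16.2 in Control 2 and 15.8 in Cu 3 for PRMT and 6.82 in Cu 3 for KAT, since weakly expressed members are then left out.

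The log2 fold change of KAT5 turned to -0.29 with a pseudocount of 0.1, -0.19 after quantile normalization and -0.10 after median-of-ratios scaling. Under those scalings KDM1B turned to -0.19 and -0.14, KMT2D to -0.089 and -0.013, and PRMT2 to -0.078 and -0.11. KMT2B turned to -0.060 after quantile normalization and PRMT1 to -0.016 after median-of-ratios scaling. With each library left out, the values spanned 0 for KAT5 (-0.93 to 1.01), KDM1A (-0.10 to 0.46), KDM1B (-0.32 to 0.36), KDM6A (-0.37 to 0.014), KAT2A (-0.16 to 0.92), KAT8 (-0.39 to 1.48), HDAC3 (-0.88 to 0.39), KMT2B (-0.35 to 0.72), KMT2D (-0.084 to 0.26), KMT2E (-0.32 to 0.067), KMT5A (-0.17 to 0.75), KMT5B (-0.14 to 0.59), KMT5C (-0.18 to 1.45), PRMT1 (-0.32 to 0.64), PRMT2 (-0.45 to 0.58), PRMT5 (-0.70 to 1.21), SETD1A (-0.17 to 1.11), SETD5 (-0.22 to 1.48) and SIRT1 (-1.08 to 0.48).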
